A study of Mus musculus with 6 samples.

Results

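The testis-specific serine kinases are a small family of protein kinases, and 5 of its genes are described here: Tssk1, Tssk2, Tssk3, Tssk4 and Tssk6. They were taken as the RefSeq mRNA entries of the expression tables that carry one of these symbols. They are 5 of the 14455 genes with a RefSeq mRNA entry in any of the 6 tables, and each is represented by 1 transcript. RNA was sequenced from mature sperm (4 samples) and from testes (2 samples) of mice labelled as strain C57BL/6 and as aged 3 to 5 months, without any other treatment. Sperm of the caudal epididymis and vas deferens were pooled over mice and freed of somatic cells by lysis, and the testes of those mice made up the testes samples. Total RNA was depleted of ribosomal RNA, and libraries were strand-specific and read from both ends.

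These kinases belong to the branch of calcium/calmodulin-dependent and AMP-activated kinases and are made almost only in male germ cells, mostly in spermatids, the haploid cells that follow meiosis. There they act while the nucleus condenses and the tail is built, and male mice without Tssk6, or without Tssk1 and Tssk2 together, are infertile. Transcription stops as the spermatid nucleus condenses, so mRNA found in mature sperm is generally taken as carried over from spermatids.

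The summed RefSeq mRNA counts ran from 33511 to 100027 in sperm and from 314273 to 322625 in testes. A gene with 3 counts, the smallest number read here as detected, therefore has between 30.0 and 89.5 CPM (counts scaled to 1000000 RefSeq mRNA counts per sample) in a sperm sample and between 9.30 and 9.55 CPM in a testes sample. Sperm replicates 1 and 3 had the fewest genes listed in the series, 2025 and 1552, against 12250 and 11537 in testes. Sperm replicate 1 was left out by the study, and values without it are given where they change a call. The labels were checked against marker genes. The protamine gene Prm2, which packs sperm DNA, had 1062 to 2393 CPM in sperm and 700.0 and 1441 CPM in testes. All 4 listed markers of spermatogonia and spermatocytes were at 0 in all 4 sperm samples. Over the 4 sperm samples together, 3 counts make 13.0 CPM. Of these markers, Stra8 and Dmrt1 had mean testes levels of 7.83 and 6.32 CPM, so their zeros do not show a lower level in sperm. Kit, Cdh1, Crisp1, Lcn5 and Ptprc were not listed in any sample. Other spermatid genes were scarce in sperm, where Odf1 and Crisp2 were at 0 throughout and Akap4 had 1 count in 1 sample. The other protamine gene, Prm1, had 0 to 142 CPM in sperm and 381 and 369 CPM in testes and was not called (edgeR adjusted p = 0.0763). Of 10 spermatid markers 3 were called lower by edgeR, beside 18.9% of all genes tested, and 0 were called lower without sperm replicate 2, sperm replicate 4 or either testes replicate. Over all genes, lower calls also fell, from 1307 to between 24 and 411, when any one sperm library was left out. Of 9 markers of testis somatic cells, 6 were at 0 in all sperm samples. Among those 6, only Insl3 had a mean testes level, 17.2 CPM, above the limit of 13.0 CPM, so the other zeros say little. The summed level of the 9 markers was 0 to 1194 CPM in sperm and 565 to 601 CPM in testes. The highest value was all from Star, a steroidogenic gene of Leydig cells. The 4 listed markers of epididymal epithelium and leukocytes summed to 80.0 to 149 CPM in sperm and 74.4 to 124 CPM in testes.

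Tssk1 and Tssk6 held most of the counts of these kinases in sperm, and both had levels in all 4 sperm samples above those of testes. The mean level of Tssk6 was 9.96 times that of testes and passed the test. That ratio was 3.85 without sperm replicate 3, and Tssk6 was then not called. The mean level of Tssk1 was 2.76 times that of testes and missed the threshold narrowly. Tssk2 had close mean levels in both tissues with a wide error. Tssk3 and Tssk4 were near or below the detection limit of the sperm samples. Of the 4 kinases with enough counts to be tested, 1 was called higher in sperm, beside 3.93% of all 6900 genes tested, and 0 were called lower, beside 18.9% of all genes (edgeR quasi-likelihood test with Benjamini-Hochberg adjustment, adjusted p under 0.05). The unadjusted p of edgeR was 4.66e-04 for Tssk6, 0.0118 for Tssk1, 0.329 for Tssk3 and 0.983 for Tssk2. At an adjusted p under 0.05, DESeq2 called 0 of the 4 higher and 0 lower, beside 136 higher and 785 lower of all 6900 genes. By limma, 0 were higher and 0 lower, beside 209 and 2483 of all 6900 genes. For Tssk6 the adjusted p was 0.185 by DESeq2 and 0.154 by limma, and for Tssk1 it was 0.826 and 0.126. In 2 of the 4 tested kinases all sperm levels exceeded both testes levels, beside 5.48% of all genes, and in 0 all sperm levels were below both, beside 41.7% of all genes. Since the testes samples hold many cell types and the sperm samples mainly one, fewer cells of a type and less RNA per cell cannot be told apart in these bulk levels. Levels are shares of the mRNA counts of a sample, so a higher level in sperm does not show more of that mRNA per cell. The p-values measure only the spread between these samples.

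**Figure D1:**
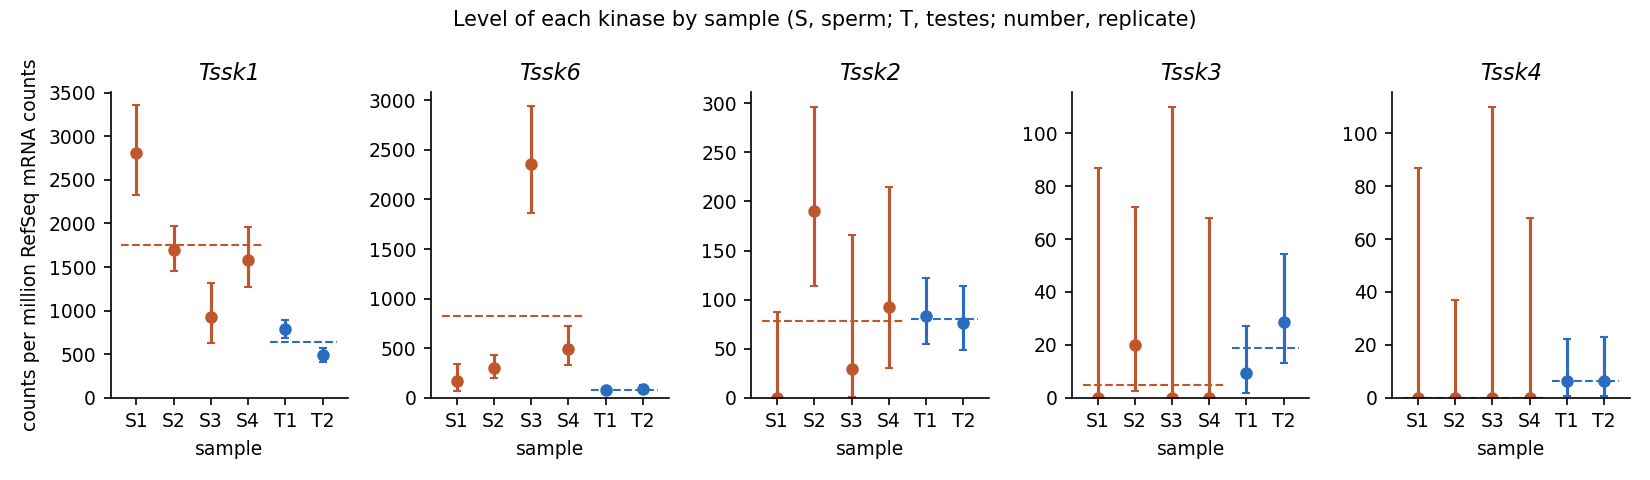
Level of each kinase in each sample, in CPM (of RefSeq mRNA counts), with 95% Poisson intervals of the count as bars and the group means as dashed lines. All 4 sperm samples lie above both testes samples for Tssk1 and Tssk6, while Tssk4 is at 0 in every sperm sample.

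Tssk1 and Tssk2 are neighbours and bind the same partner, the testis-specific kinase substrate Tsks, in the late spermatid. On the GRCm38.p6 assembly, Tssk1 (NM_009435) lies on chromosome 16 from 17894203 to 17895653 and Tssk2 (NM_009436) from 17898637 to 17900024, both on the plus strand with 2983 bases between them. Tssk6 (NM_032004) lies on chromosome 8 from 69902184 to 69903518 on the plus strand. The transcript lengths of these 3 genes, 1451, 1388 and 1335 bases, equal their spans on the chromosome, so the annotation gives them no intron. The 250 bases before the start site of each, from RefSeq and read 5′ to 3′ on the plus strand, are printed because Tssk1 and Tssk2 are a neighbouring pair with unlike levels in sperm and Tssk6 is the kinase called higher there. Capitals mark TGACTTCA on either strand (its reverse complement reads TGAAGTCA) or TGACG.
Tssk1, chr16:17893953-17894202: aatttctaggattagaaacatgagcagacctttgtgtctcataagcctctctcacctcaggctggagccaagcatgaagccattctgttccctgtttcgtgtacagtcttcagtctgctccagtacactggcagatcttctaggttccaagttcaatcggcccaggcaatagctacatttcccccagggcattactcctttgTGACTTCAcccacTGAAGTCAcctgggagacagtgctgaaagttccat
Tssk2, chr16:17898387-17898636: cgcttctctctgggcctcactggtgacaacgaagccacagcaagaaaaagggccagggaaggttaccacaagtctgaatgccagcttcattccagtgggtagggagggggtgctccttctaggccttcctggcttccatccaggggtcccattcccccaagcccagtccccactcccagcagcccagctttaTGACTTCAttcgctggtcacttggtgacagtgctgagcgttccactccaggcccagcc
Tssk6, chr8:69901934-69902183: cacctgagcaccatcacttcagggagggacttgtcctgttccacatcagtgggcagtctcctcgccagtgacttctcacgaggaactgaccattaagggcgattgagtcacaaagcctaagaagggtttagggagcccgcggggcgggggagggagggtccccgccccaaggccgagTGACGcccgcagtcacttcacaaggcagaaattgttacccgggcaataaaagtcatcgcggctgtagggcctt

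The windows were searched on both strands for TGACGTCA, the full cAMP response element bound by CREB and CREM factors, for its shorter form TGACG, which can lie inside it, and for TGACTTCA, which was chosen after these sequences had been seen. TGACTTCA was found in Tssk1 with its first base 48 bases before the start on the plus strand and again at 35 bases before the start on the minus strand. Tssk2 held it once, 58 bases before the start. Tssk6 held TGACG 73 bases before the start. None of the 5 windows held TGACGTCA, and the windows of Tssk3 and Tssk4 held none of the searched letters. RefSeq's table places the starts of Tssk3 and Tssk4 at 129490770 and 55650184, inside the gene spans given for them here, so their windows do not cover the bases before the outer ends of those spans. Of 32851 RefSeq promoter windows of the same length, 1.31% held TGACTTCA, 17.8% held TGACG and 1.55% held TGACGTCA. The longest run shared by the Tssk1 and Tssk2 windows was 11 bases, gacagtgctga, beginning 20 and 33 bases before the starts, while the other pairs of kinases shared runs of 7 or 8 bases. These matches describe the letters only.

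Tssk1, a kinase of late spermatids, was the kinase with the most counts in 3 of the 4 sperm samples and in both testes samples. From sperm replicate 1 to replicate 4 its counts were 119, 170, 31 and 86, whereas the testes samples held 253 and 153 counts. Scaled to the mRNA total, its levels were 2807, 1700, 925 and 1583 CPM in sperm and 784 and 487 CPM in testes. The lowest sperm sample, replicate 3, lay above the higher testes sample, and no level overlapped between the groups. The mean was 1754 ± 781 CPM (SD, n = 4) in sperm and 636 ± 210 CPM (SD, n = 2) in testes. The fitted log2 fold change was 1.46 with a standard error of 0.58, and the adjusted p of edgeR was 0.0514. The 95% interval of the log2 fold change was 0.32 to 2.60. Without sperm replicate 3 the log2 fold change was 1.67 and Tssk1 was called (edgeR adjusted p = 0.00719). With TMM factors the log2 fold change was 0.55 and with DESeq2 size factors 0.29 (edgeR adjusted p of 0.669 and 0.732). In the deposited FPKM, where values are also scaled by length and by all mapped fragments, the groups overlapped, since sperm replicate 3 had 60.3 and testes replicate 1 had 62.6.

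Among all genes listed in a sample, ordered by level per kilobase of transcript, Tssk1 ranked 20th of 2025, 35th of 6733, 79th of 1552 and 34th of 3316 in sperm replicates 1 to 4. In testes it ranked 81st of 12250 and 170th of 11537. It was thus among the most abundant mRNAs of each library. At its mean testes level, between 21.3 and 63.6 counts would have been counted in the sperm samples, above the limit of 3 counts in each.

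Tssk2, the partner of Tssk1 at this locus, was far less abundant than its neighbour. The sperm samples, in order of their numbers, held 0, 19, 1 and 5 counts, and the testes samples held 27 and 24. These were 0, 190, 29.8 and 92.0 CPM in sperm and 83.7 and 76.4 CPM in testes. Sperm replicates 2 and 4 lay above both testes samples and replicates 1 and 3 below, so the groups overlapped. The mean was 78.0 ± 83.9 CPM (SD, n = 4) in sperm and 80.0 ± 5.18 CPM (SD, n = 2) in testes. The log2 fold change of 0.03 had a 95% interval of -3.02 to 3.09 (edgeR adjusted p = 0.991), which leaves room for large changes in either direction. That interval is rough, since it was derived from the fold change and the test statistic, both very small here. At the testes level sperm replicates 1 and 3 would have had 3.39 and 2.68 counts, so their 0 and 1 counts are close to the detection limit.

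Per base of transcript, the level of Tssk1 was 8.56, 29.7 and 16.5 times that of Tssk2 in sperm replicates 2, 3 and 4, and 8.96 and 6.10 times in testes. Sperm replicate 1 had no Tssk2 count. The ratio of sperm replicate 2 lay between those of the testes samples, whereas replicates 3 and 4 lay above both, on 1 and 5 counts of Tssk2. How reads shared by related kinases were assigned is not given in the sources used here. All counts of the 5 kinases were whole numbers.

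Tssk6, also named Sstk, is needed for the exchange of histones and the condensation of the sperm nucleus, and its activity depends on the heat shock protein HSP90 and the co-chaperone TSACC. It had 7, 30, 79 and 27 counts in the numbered sperm samples, in that order, and 24 and 29 counts in the testes samples. These were 165, 300, 2357 and 497 CPM in sperm and 74.4 and 92.3 CPM in testes. No sperm level overlapped those of testes, and sperm replicate 3 lay far above the other sperm samples. The 95% Poisson interval of sperm replicate 1, 66.4 to 340 CPM, overlapped those of testes, 47.7 to 111 and 61.8 to 133 CPM. The mean was 830 ± 1027 CPM (SD, n = 4) in sperm and 83.3 ± 12.6 CPM (SD, n = 2) in testes. The log2 fold change was 3.28 with a standard error of 0.94 and a 95% interval of 1.44 to 5.12, and Tssk6 was called higher (edgeR adjusted p = 0.0150). It lay at the 93.7th percentile of the log2 fold changes of all genes tested, whose median was -1.13. Among the 1793 genes kept by filterByExpr, a stricter filter on low counts, the median was 0.09 and Tssk6 lay at the 86.7th percentile.

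The call of Tssk6 depended on single libraries, although every fit gave a positive change. Without sperm replicate 3 the log2 fold change fell to 1.94 (edgeR adjusted p = 0.0964). It was 3.57 without sperm replicate 2, 3.14 without testes replicate 1 and 3.44 without testes replicate 2 (edgeR adjusted p of 0.100, 0.221 and 0.177). The call held without sperm replicate 1 and without sperm replicate 4, with log2 fold changes of 3.62 and 3.47 (edgeR adjusted p of 6.43e-04 and 0.0198). It also held without both of the sperm libraries that list the fewest genes, replicates 1 and 3, at a log2 fold change of 2.23 (edgeR adjusted p = 0.00640), a choice made after the data were seen. Scaling also ended the call, since TMM factors gave 1.93 and DESeq2 size factors 1.997 (edgeR adjusted p of 0.268 and 0.145), while the median of all genes moved by -0.82 and -1.15.

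**Figure D2:**
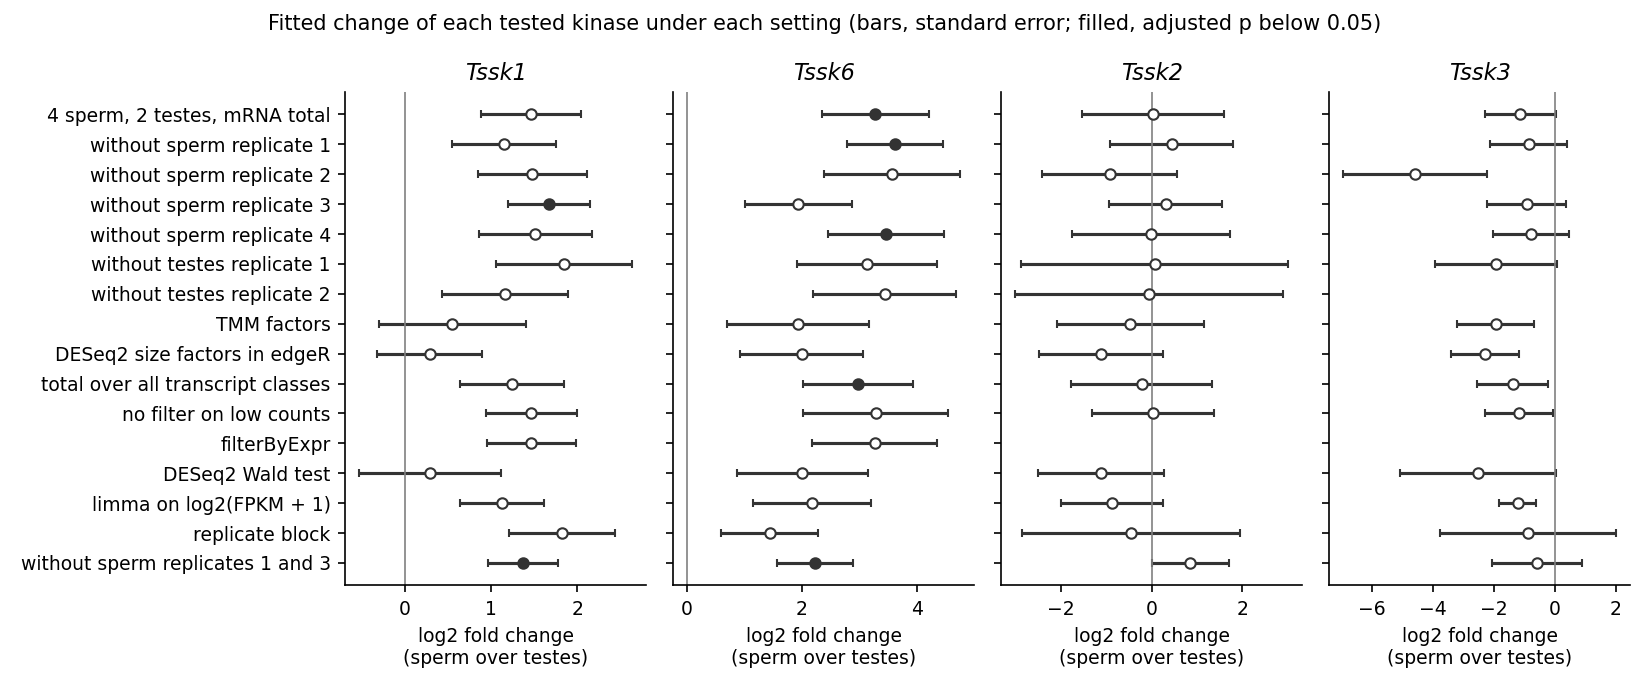
Log2 fold change of sperm over testes for the 4 tested kinases (horizontal axes, with standard errors) under the fit reported here, at the top, and each alternative. Tssk6 is positive throughout, from 1.44 to 3.62, while Tssk2 lies on both sides of 0 and the lowest value of Tssk3 comes from a fit in which every remaining sperm sample is at 0.

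In sperm replicate 3, where Tssk6 was highest, the Leydig cell gene Star was also at its highest level, 1194 CPM, against 0, 160 and 110 CPM in sperm replicates 1, 2 and 4 and 521 and 471 CPM in testes. Of the other 8 somatic markers, none had a count in sperm replicate 3. Their mean testes levels were at most 22.1 CPM, below the 89.5 CPM that 3 counts make in this library. These zeros therefore carry no information on somatic RNA there. The part of this library in the Tssk6 level was tested only by leaving it out. Tssk6 also shares 375 bases with Ndufa13, a subunit of mitochondrial complex I on the opposite strand (69894163 to 69902558). Whether the counting used the strand of the reads is not given in the sources used here, so reads of the shared bases may not be told apart. The levels of Ndufa13 in the sperm samples were 25006, 17925, 27931 and 24164 CPM, and those in the testes samples were 7585 and 8964 CPM. It was thus higher in every sperm sample than in testes, like Tssk6. Tssk6 counts were 0.660%, 1.67%, 8.44% and 2.06% of the Ndufa13 counts in sperm and 0.981% and 1.03% in testes. The share in sperm replicate 1 was below that of testes, and the other 3 sperm samples were above. The part of Ndufa13 reads in the Tssk6 count was not tested.

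**Figure D3:**
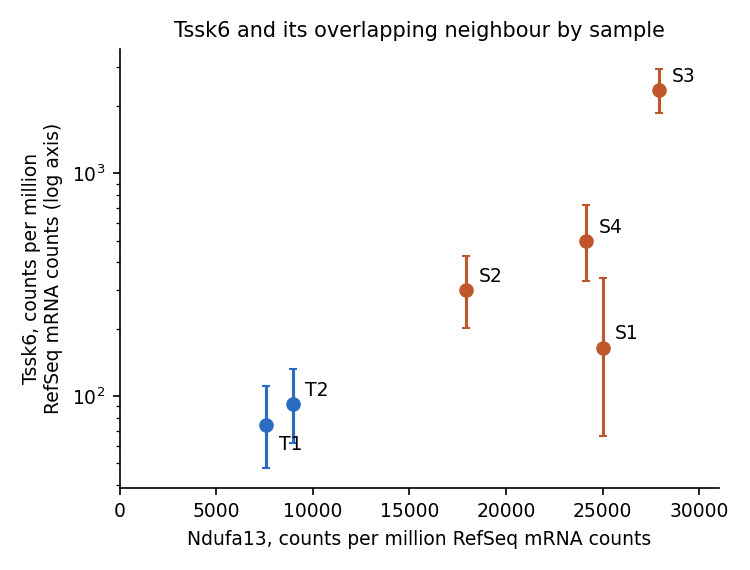
Level of Tssk6 (vertical, log axis) against that of the overlapping gene Ndufa13 (horizontal) in each sample, both in CPM (of RefSeq mRNA counts), with 95% Poisson intervals for Tssk6. The testes samples (T1, T2) lie at the lower left, and sperm replicates 1 and 3 (S1, S3) differ from 165 to 2357 in Tssk6 at near levels of Ndufa13, 25006 and 27931.

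Tssk3, which can be activated by the kinase Pdpk1, was rare in both tissues. It (NM_080442, 1034 bases) lies on the minus strand of chromosome 4 from 129489008 to 129491730 and shares 541 bases with Fam229a on the other strand. Its counts were 0, 2, 0 and 0 in sperm and 3 and 9 in testes, or 0, 20.0, 0 and 0 CPM against 9.30 and 28.6 CPM. The single sperm sample with counts was the deepest, and it lay between the testes samples. The ratio of the summed counts of sperm to testes, scaled to the mRNA totals, was 0.461 with an exact 95% counting interval of 0.0501 to 2.07. The log2 fold change was -1.13 with a standard error of 1.16 (edgeR adjusted p = 0.491). At the testes level, each sperm sample would have had between 0.636 and 1.90 counts, so a lower level in sperm was not detectable at this depth.

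Tssk4, which acts on the outer dense fibre protein Odf2 of the sperm tail, had counts only in testes. It (NM_027673, 1243 bases) lies on the plus strand of chromosome 14 from 55643651 to 55652539 and shares 156 bases with Tm9sf1. It had 0 counts in all 4 sperm samples and 2 counts in each testes sample, which is 6.20 and 6.36 CPM. A count of 0 over the 4 sperm samples together allows up to 13.0 CPM, above the testes level, and Tssk4 had too few counts to be tested. A further gene of the family, Tssk5 (NM_183099), had 0 counts in sperm and 1 count in each testes sample.

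To compare the kinases with one another, levels were divided by transcript length (CPM per kilobase). In sperm the order of means was Tssk1 with 1209 ± 538, Tssk6 with 622 ± 770, Tssk2 with 56.2 ± 60.5 and Tssk3 with 4.83 ± 9.67 (SD, n = 4), and Tssk4 was at 0. Neighbours in this order overlapped, since Tssk6 ran from 124 to 1766, Tssk1 from 638 to 1935 and Tssk2 from 0 to 137. In testes the order was Tssk1 with 438 ± 145, Tssk6 with 62.4 ± 9.47, Tssk2 with 57.7 ± 3.73, Tssk3 with 18.3 ± 13.2 and Tssk4 with 5.05 ± 0.0937 (SD, n = 2). There Tssk1 stood above all other kinases, and Tssk6 and Tssk2 overlapped. Within single samples, the level of Tssk1 per length was 15.6, 5.21 and 2.93 times that of Tssk6 in sperm replicates 1, 2 and 4, and 9.70 and 4.85 times in testes. Sperm replicate 3 alone had more Tssk6 than Tssk1, at a ratio of 0.361. The level of Tssk6 per length was 1.64, 82.1 and 5.61 times that of Tssk2 in sperm replicates 2, 3 and 4, and 0.924 and 1.26 times in testes.

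The counts of the 5 kinases summed to 126, 221, 111 and 118 in sperm and 309 and 217 in testes. Scaled, the sums were 2972, 2209, 3312 and 2172 CPM in sperm and 958 and 690 CPM in testes. The sum varied less among sperm samples than either Tssk1 or Tssk6 did, with the highest at replicate 3, where Tssk1 was lowest. Tssk1 made up 94.4%, 76.9%, 27.9% and 72.9% of these counts in the sperm samples and 81.9% and 70.5% in the testes samples. Tssk6 made up 5.56%, 13.6%, 71.2% and 22.9% in sperm and 7.77% and 13.4% in testes. The Wilson 95% interval of the Tssk6 share was 62.1% to 78.8% in sperm replicate 3 and 16.2% to 31.2% in replicate 4, so these replicates differed by more than counting error. Tssk2 made up 0%, 8.60%, 0.901% and 4.24% in sperm, each below its 8.74% and 11.1% in testes. A count of 0 in sperm replicate 1 allows a Tssk2 share of up to 2.96% (upper Wilson bound), and the upper bound in replicate 3 was 4.93%. The Wilson intervals of replicates 2 and 4, 5.57% to 13.0% and 1.82% to 9.54%, overlapped those of testes, 6.07% to 12.4% and 7.55% to 15.9%. The mean level of Tssk2 was 78.0 CPM in sperm and 80.0 CPM in testes, so the lower shares do not show a lower level. These intervals cover counting error only.

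**Figure D4:**
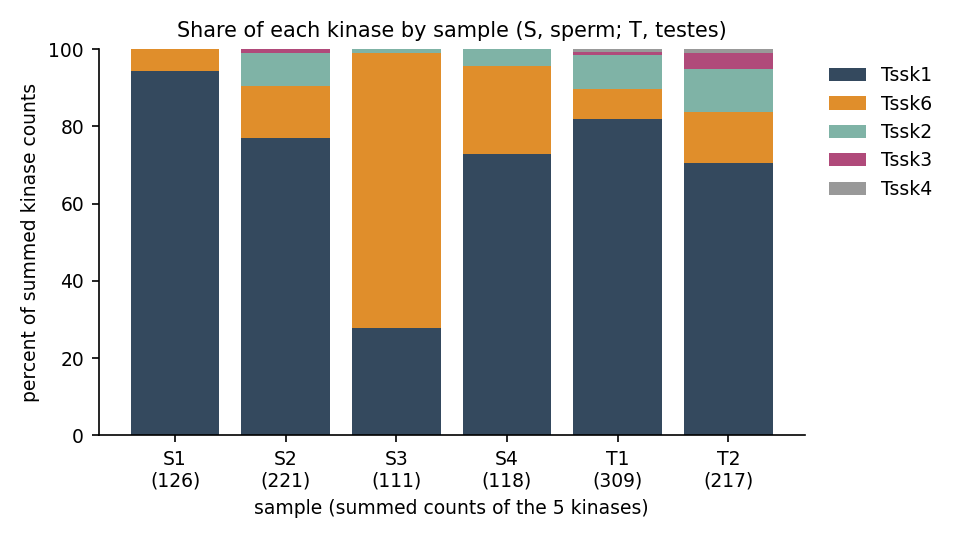
Share of each kinase in the summed counts of the 5 kinases, in percent, with the summed count of each sample in parentheses. Tssk1 holds the largest share in every sample except sperm replicate 3, where Tssk6 holds 71.2%.

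Genes with the pattern most like that of each tested kinase were found by Pearson's r of log2(CPM + 10) over the 6 samples, among the genes with at least 100 counts. The r values are descriptions over samples that share their depth and their split by tissue. Tssk1 was most like Mapt (r = 0.989), which encodes the microtubule protein tau, followed by Cyth2 (0.978) and Fbxo6 (0.968). Mapt counts were 125, 189, 34 and 81 in sperm and 320 and 164 in testes, close to those of Tssk1 in each sample. Tssk6 was most like Ogfr (0.966), Tmem206 (0.95) and Msmp (0.946), and Ogfr also peaked in sperm replicate 3 with 106 counts, against 11, 25 and 24 counts in replicates 1, 2 and 4 and against 49 and 44 counts in testes. Tssk2 was most like Trip12 (0.956), Tmem8 (0.953) and Arsa (0.936), all at 0 in sperm replicate 1. Tssk3 was most like Hist2h2aa2 (0.943), Ppp1r11 (0.940) and Ccni (0.934).

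The proteins that bind these kinases, or are modified by them, were compared next. Of 10 listed partners and substrates, 8 had enough counts to be tested, of which 2 fell, beside 18.9% of all genes, 0 rose, beside 3.93%, and 6 were not called by edgeR. DESeq2 called 2 of the 8 lower and 0 higher, beside 785 lower and 136 higher of all 6900 genes. By limma, 3 were lower and 0 higher, beside 2483 and 209 of all 6900 genes. Hsp90aa1, an HSP90 chaperone gene, had 0, 3.2, 0 and 1 counts in sperm and 106 and 406 in testes. It fell by 5.65 on the log2 scale with a standard error of 1.18 (edgeR adjusted p = 1.28e-04). Pdpk1, the kinase that activates Tssk3, was at 0 in all sperm samples with 5.22 and 7.86 counts in testes (edgeR adjusted p = 0.0484). By the limit of 3 counts over the sperm group it was at least 1.58-fold lower. Such a bound takes the testes mean as exact and leaves out the spread between replicates, here and for the genes below. The partner Tsks, with 0, 3, 0 and 0 counts in sperm and 13 and 6 in testes, was not called (log2 fold change -1.34, edgeR adjusted p = 0.441). Odf2 had 12, 78, 13 and 27 counts in sperm against 236 and 338 in testes and was not called (log2 fold change -0.88, edgeR adjusted p = 0.390), and its CPM overlapped between the groups. Tsacc had 0 counts in sperm and 3 and 2 in testes and was not tested. The median log2 fold change of the 8 tested partners was -1.54, beside -1.13 for all genes tested. With genes at 0 in sperm set to their bound, it was -1.11 beside -0.66. Without any one sperm library, lower calls over all genes numbered 24 to 411, against 1307 with all libraries. The lower calls in this list numbered between 0 and 1 when any one library was left out.

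The relatives of the family in the AMP-activated kinase branch numbered 16, of which 10 were tested, 1 rose, 5 fell and 4 were not called, beside 3.93% higher and 18.9% lower among all genes. Sik2, a salt-inducible kinase, was at 0 in sperm with 40 and 52 counts in testes (edgeR adjusted p = 0.0287). It was at least 11.1-fold lower with the testes mean taken as exact. Snrk had 4, 20.1, 0 and 10 counts in sperm against 248 and 314 in testes, and fell by 2.81 on the log2 scale with a standard error of 0.91 (edgeR adjusted p = 0.0287). Hunk had 0, 7, 0 and 6 counts against 119 and 197, and fell by 3.32 on the log2 scale (edgeR adjusted p = 0.0332). These 3 relatives fell, whereas Tssk6 rose. The catalytic subunit Prkaa2 rose, with 15.0, 15, 6 and 1.15 counts in sperm and 1 in each testes sample (edgeR adjusted p = 0.0364). Its log2 fold change was 5.45 with a standard error of 2.01. The ratio of summed levels was 51.2 with an exact 95% counting interval of 13.2 to 438. That interval leaves out the spread between sperm samples, which ran from 21.2 to 353 CPM. The median log2 fold change of the list was -2.32, or -1.33 with genes at 0 in sperm set to their bound. Leaving out any one sperm library cut the lower calls over all genes from 1307 to between 24 and 411. No gene of this list was called without sperm replicate 2, sperm replicate 4 or either testes replicate, and without sperm replicate 1 only 2 were called, both lower.

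Of 17 other kinases of germ cells, 10 were tested, 1 rose, 2 fell and 7 were not called. The share that fell was close to the 18.9% of all genes, and 3.93% of all genes rose. Csnk2a2, a catalytic subunit of casein kinase 2, had 14, 29, 18 and 16 counts in sperm and 2 and 16 in testes, which made 290 to 537 CPM against 6.20 and 50.9 CPM. It rose by 3.62 on the log2 scale with a standard error of 1.35 (edgeR adjusted p = 0.0384). Stk31 was at 0 in sperm with 26 and 17 counts in testes, and Stk33 at 0 with 5 and 17 counts (edgeR adjusted p = 0.0287 for both). With the testes means taken as exact, they were at least 5.17-fold and 2.67-fold lower. The median log2 fold change of this list was -0.28. Over all genes, lower calls fell from 1307 to between 24 and 411 when any one sperm library was left out. Both lower calls were lost when any one library was left out, and the higher call was lost without sperm replicate 2, sperm replicate 4 or either testes replicate.

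**Figure D5:**
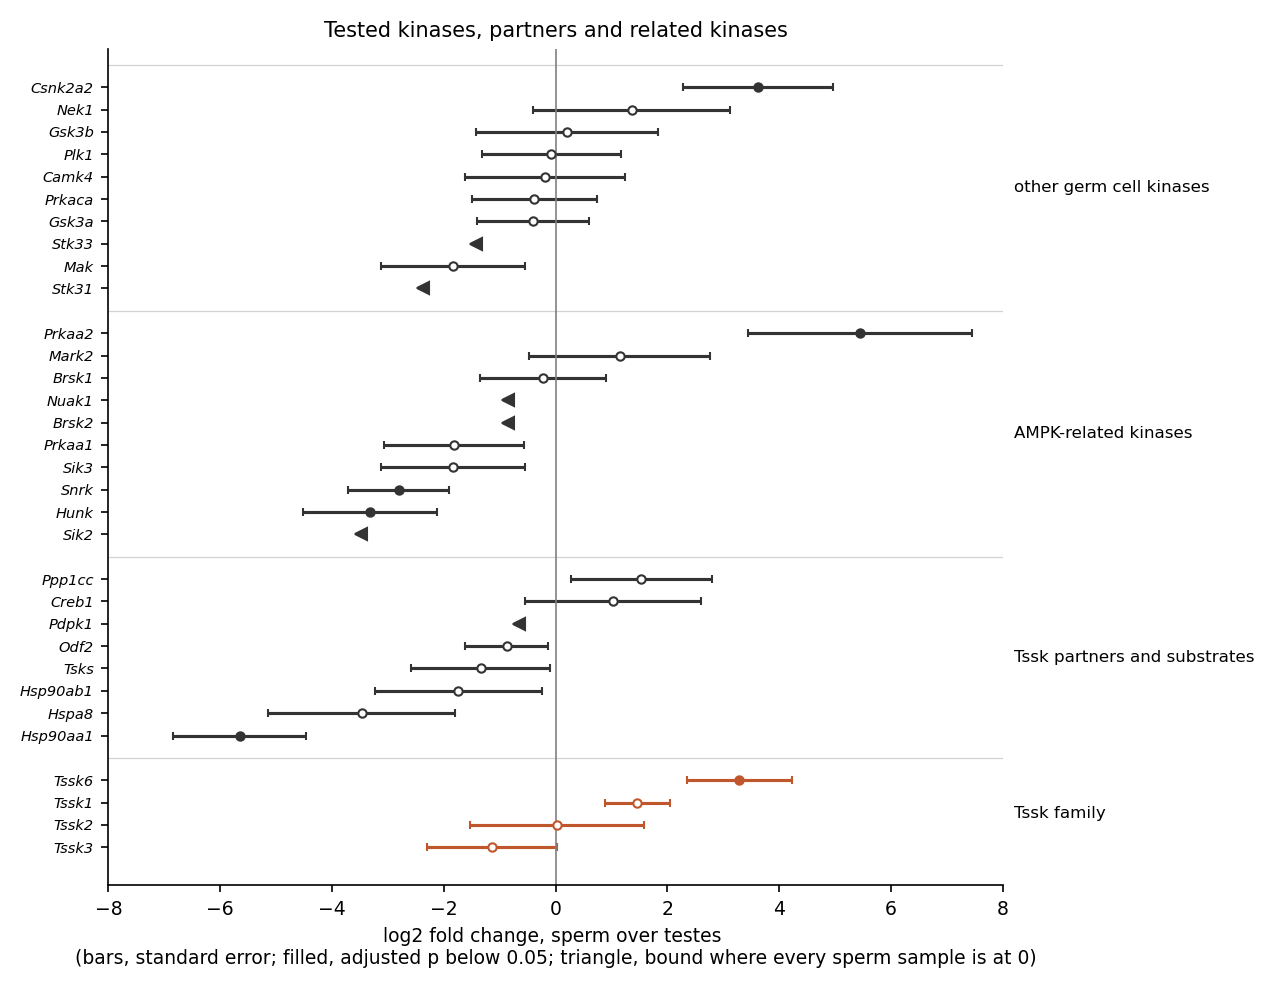
Log2 fold change of sperm over testes (horizontal axis) for the tested kinases of the family, their partners, AMPK-related kinases and other germ cell kinases, with standard errors, filled where the adjusted p is under 0.05. Triangles mark genes at 0 in all sperm samples at the bound given by 3 counts, such as Sik2 at a bound of 11.1-fold, and Tssk6 at 3.28 is the family member that was called.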

How the data were processed

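RNA of 4 sperm and 2 testes samples was measured, and groups and replicate numbers came from the sample titles. The authors removed adaptor and low-quality reads and aligned the rest with SOAPaligner/SOAP2 per their methods, while HISAT and the build mm10 are named in the submitters' processing notes. Versions and the counting program are not given in the sources used here. The deposited tables hold, per transcript, an estimated count that need not be whole and an FPKM value, with the transcript length, per the file headers. Tables list only transcripts with a value, and those not listed were set to 0.

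Estimated counts of RefSeq mRNA entries were summed per gene, rounded and tested with edgeR 4.0.16 (quasi-likelihood test, R 4.3.3) over 6900 genes with at least 10 counts in all and a count in at least 2 samples, with the RefSeq mRNA total as library size and Benjamini-Hochberg adjustment. These totals were 9.14% to 12.1% of all counts, which were 366455 to 2866856 per sample. DESeq2 1.42.0, limma 3.58.1 on log2(FPKM + 1), other scalings and filters, the replicate number as a block and leaving out libraries were alternatives. Replicates of a group differed beyond sampling noise (chi-square per degree of freedom 4.93 to 12.5), so each was counted as a sample of its own. Summed counts of a group were used only for the limit of 3 counts and for the ratios of Tssk3 and Prkaa2. Poisson, Wilson and exact counting intervals and the limits cover counting error only, and fold bounds from the limit of 3 counts take the testes mean as exact. The intervals of log2 fold changes came from the standard error, which includes the spread between replicates. For edgeR that error was derived from the fold change and the test statistic, and the intervals take it as normal, so they are approximate. Of 16425 RefSeq transcripts, 16312 (99.3%) matched GRCm38.p6 by accession, which gave coordinates. Only the edgeR fit was checked on simulated data, in which all genes had the same spread. The changed genes there were not sparse in the smallest library, so the check does not cover genes with as few counts as Tssk3. All 5 kinases are named, with the called genes of each list by smallest adjusted p (up to 4) and the 3 genes most like each kinase. Markers, Ndufa13 and the partners that were not called were named after their values had been seen. The kinases and lists were chosen with earlier results of these data known.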

Additional observations from a re-analysis of the deposited data

Results flagged for a closer look

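The level of Tssk6 in sperm replicate 3 stood apart from the other 3 sperm samples. At 2357 CPM it was the highest of 165, 300, 497 and 2357 CPM, and the gap to the next sample took up 0.849 of the whole range, above Dixon's critical value for 4 samples. Chance alone marks about 1 in 20 such groups if values are normal, and these CPM were not logged. The levels and shares of Tssk1, Tssk2 and Tssk6 were all examined, so a mark somewhere was likelier than that. Without this sample the log2 fold change of Tssk6 was 1.94 (edgeR adjusted p = 0.0964).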

How the results depend on the processing

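Tssk1 and Tssk6 stayed positive and Tssk3 negative in every alternative that could be fitted. The log2 fold change of Tssk1, 1.46 in the reported fit, shrank to 0.55 with TMM factors, 0.29 with DESeq2 size factors and 0.29 by DESeq2. When one library at a time was left out, the log2 fold change of Tssk2, 0.03 in the reported fit, ran from -0.92 to 0.44, that of Tssk6 ran from 1.94 to 3.62, Tssk1 from 1.15 to 1.85 and Tssk3 from -4.60 to -0.78. Genes called higher then numbered 39 to 345 and lower 24 to 411. For Tssk6 the call was lost with TMM factors (1.93), DESeq2 size factors (1.997), no filter (3.29), filterByExpr (3.27), DESeq2 (2.01), limma (2.18) and the replicate block (1.44). Tssk2 turned negative with TMM factors (-0.47), DESeq2 size factors (-1.11), the total of all transcript classes (-0.22), DESeq2 (-1.12), limma (-0.87) and the replicate block (-0.45). Genes called higher and lower numbered 65 and 1791 with TMM factors, 140 and 2609 with DESeq2 size factors, 252 and 1651 with the total of all classes, 27 and 7 without a filter, 213 and 205 with filterByExpr, 136 and 785 by DESeq2, 209 and 2483 by limma, and 164 and 103 with the replicate block. The reported fit called 271 higher and 1307 lower, and the share of calls that were higher was 17.2% there, 3.50% with TMM factors and 5.09% with DESeq2 size factors. The cause was not tested, beyond fewer genes or samples where an alternative leaves them out. The median of all genes moved by -0.82, -1.15 and -0.24 under the first 3 of these, and relative to it Tssk6 was at 4.42 in the reported fit and 3.88, 4.27 and 4.35 under them. Without sperm replicates 1 and 3, chosen after seeing the data, 608 and 703 genes were called, and Tssk1 was called at 1.37, as it was without sperm replicate 3 alone (1.67). Deviations of same-numbered sperm and testes samples correlated at -0.01 and -0.10 over 1350 genes, so the numbers were not shown to pair samples. Tssk4 could be fitted only without a filter, Tssk2 and Tssk3 not with filterByExpr and Tssk3 not without testes replicate 2, and DESeq2 gave no adjusted p for Tssk3. Sperm depth limits Tssk2, Tssk3 and Tssk4, whose testes levels come to few counts in a sperm sample.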
